A study of Arabidopsis thaliana with 27 samples.

Results

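The comparison described here is the change in transcript levels that a move from high to ambient CO2 brought in the Arabidopsis line GO5, less the same change in the wild type. Its arrays were taken by their labels, 12 of the 27 of the study, 3 in each of 4 groups: GO5 and wild type, at ambient and at high CO2. The wild type was Columbia-0 (WT). GO5 is a named line that expresses glycolate oxidase in its chloroplasts; the labels give neither the promoter nor the number of insertion events, so its values are those of 1 line. Plants of every group, controls included, were raised in soil at 3000 ppm CO2 for 3 weeks. Those of the ambient groups then spent 8 h at 380 ppm CO2 under the same light, and those of the high CO2 groups stayed at 3000 ppm for the same 8 h, so they are parallel controls and not a state before the move. Each array holds RNA of 2 pooled whole rosettes. Another genotype, the catalase-deficient mutant cat2-2 (cat2), and samples taken at 0 h were also measured and appear only where a value of theirs bears on GO5.

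Glycolate is made by photorespiration, the salvage of the product that Rubisco forms when it takes up O2 in place of CO2. High CO2 suppresses this side reaction, and a move to ambient air lets glycolate flow again. Glycolate oxidase turns glycolate into glyoxylate and H2O2; plants keep this reaction in peroxisomes, next to catalase, whereas GO5 plants can also form H2O2 inside the chloroplast. Cells meet H2O2 with peroxidases and glutathione-dependent enzymes, and reprogramme nuclear genes for detoxification, for alternative respiratory enzymes and for defence.

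Transcripts were measured with ATH1-type arrays, on which each probe set reports 1 transcript or a few, and values are log2 signals, so that a difference of 1 is a doubling. The step of a genotype is its mean at ambient CO2 minus its mean at high CO2, and the difference is the GO5 step minus the WT step, given ± its standard error from the fit. A difference was called where its p-value in limma, adjusted by Benjamini-Hochberg over all 22746 probe sets, was under 0.05. Of these probe sets 13513 are paired with 1 gene and only these are named as genes. The labels call the 3 samples of a group biological replicates. In pooled rosettes, fewer cells of a type and less RNA per cell cannot be told apart.

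Few markers of cell type or organ could be read. The leaf genes RCA and LHCB4.1, for Rubisco activase and a light-harvesting protein, had mean log2 signals of 13.0 and 12.5, beside 5.16 for the guard cell regulator FMA and 2.73 for the root hair gene EXPA7; levels of different probe sets also depend on the probes, so these values are a description only. Only 1 of 5 guard cell markers, 1 of 4 root markers, 0 of 3 phloem markers and 0 of 4 flower markers were paired with a probe set. Replicate 1 of WT at ambient CO2 had the lowest median log2 signal of the 27 arrays, 5.28, where the other 11 arrays of the comparison lay between 5.45 and 5.51. The 3 WT ambient arrays scattered more than any other group, with a median SD of 0.237 per probe set against 0.122 to 0.172 in the other 8 groups. Replicate 1 of WT ambient had the lowest correlation with its own group of all arrays (mean r = 0.969), and replicate 2 had the largest difference between the 3' and 5' control probe sets for GAPDH (2.82 log2). Without replicate 1 the comparison gave 476 calls, without replicate 2 it gave 1675, and with all arrays 633.

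The step differed between GO5 and WT at 633 probe sets, 2.78% of those tested. At 329 of them (1.45%) the step was higher in GO5 and at 304 (1.34%) it was lower. The higher ones were the larger: 266 (1.17%) differed at least 2-fold and 117 at least 4-fold, with a median difference of 1.53. Among the lower ones 38 (0.167%) differed at least 2-fold and 1 at least 4-fold, with a median of -0.77. The median over all probe sets was -0.05. Centring every array on its own median moved that value to -0.15 and the calls to 290 higher and 525 lower, so the balance between higher and lower calls depends on the scaling.

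Most of the called differences had a called step in GO5 and none in WT. In GO5 the move to ambient CO2 changed 4022 probe sets (17.7%), 1750 up (7.69%) and 2272 down (9.99%), and in WT it changed 1085 (4.77%), 633 up (2.78%) and 452 down (1.99%). The WT count was unsteady: it was 3247 without WT ambient replicate 2, with 1250 up and 1997 down, and 587, 603 and 618 without WT ambient replicate 1, WT high replicate 1 or WT high replicate 2. It was 270 with group variance weights and 153 with only the arrays compared. Of the 329 higher differences, 300 had a called GO5 step and no called WT step, 13 the reverse, 4 both in the same direction, 3 both in opposite directions and 9 neither. Their median GO5 step was 1.55 and their median WT step -0.11. Of the 304 lower differences, 257 had a called step in GO5 and none in WT, 18 the reverse, 5 both in the same direction, 3 both in opposite directions and 21 neither, with median steps of -0.57 in GO5 and 0.17 in WT. The GO5 ambient arrays lay above all 9 arrays of the other 3 groups at 292 of the 329 (against 5.36% of all probe sets), and below all 9 at 244 of the 304 (against 6.97%). The calls were selected on these same arrays, so this separation follows largely from the selection and only describes them.

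**Figure D1:**
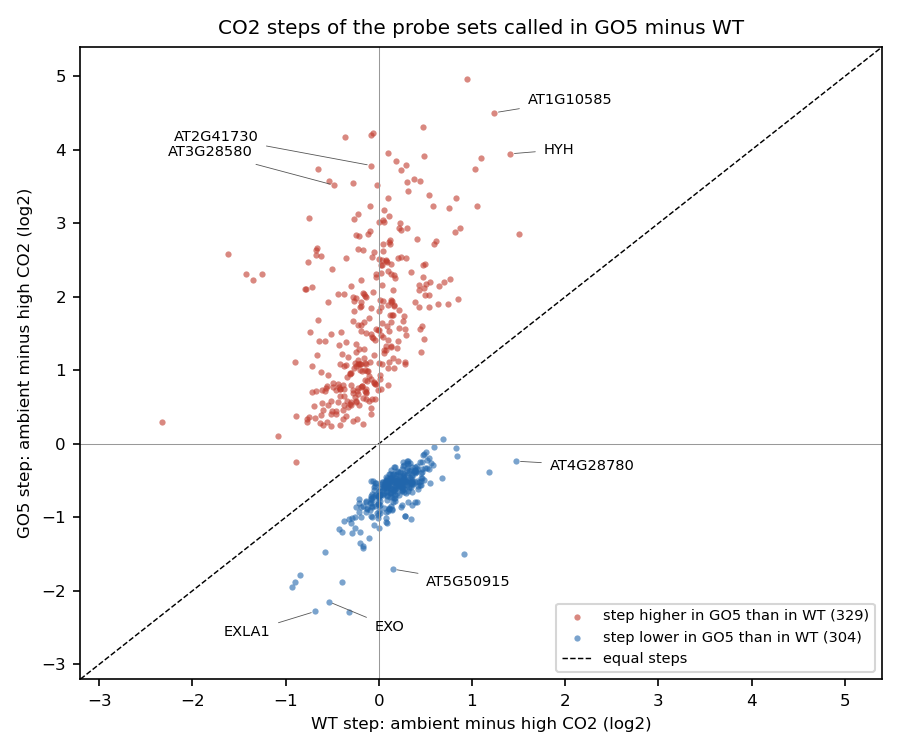
Each point is a probe set called in the comparison, placed by its step in WT (x axis, log2) and in GO5 (y axis, log2); the dashed line marks equal steps. The 329 higher differences (red) rise steeply from about 0 on the WT axis, and the 304 lower ones (blue) form a compact cloud below the line.

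After 8 h more at high CO2, 3 probe sets (0.0132%) differed between GO5 and WT, all 3 higher and 0 (0.0%) lower in GO5, and the median GO5 minus WT difference there was 0.04 for the higher and 0.06 for the lower set of calls. The probe sets with a higher step also had lower levels in WT at high CO2: their median log2 signal there was 5.13, against 7.42 for those with a lower step and 5.49 over all. Under a log2 signal of 3, near the background of the arrays, lay 30 of the 329, 2 of the 304 and 21.9% of all probe sets. Folds from so low a level are bounded by the background, and these values carry no detection call.

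The largest difference at a named gene was that of AT3G28580, an AAA-type ATPase known as a marker of the response to singlet oxygen from plastids. Its log2 signals were 4.67, 3.55 and 2.93 in WT at high CO2, 3.34, 3.10 and 3.27 in WT at ambient CO2, and 3.72, 4.08 and 3.24 in GO5 at high CO2. In GO5 at ambient CO2 they were 6.58, 8.05 and 6.97, each above all 9 others. The GO5 step was 3.52 and the WT step -0.48, a difference of 3.99 ± 0.57 (15.9-fold, adjusted p = 0.00053).

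Target genes of the mitochondrial retrograde response, by which disturbed respiration is signalled to the nucleus, were among the most raised. They include genes for alternative NADH dehydrogenases. Of 9 measured members of this list 6 were called, all higher, against 1.11% of all single genes, and the median difference was 2.50. This list and those below were chosen with earlier results of these data known, so such shares are a description only. AT2G41730, a small protein gene of this response, had log2 signals between 4.98 and 5.91 in WT at high CO2 and of 5.84, 4.83 and 5.18 in WT at ambient CO2. GO5 gave 7.21, 5.95 and 8.59 at high CO2 and 10.4, 11.9 and 10.8 at ambient CO2. The GO5 ambient arrays stood clear of every other array, and GO5 at high CO2 also lay above all 6 WT arrays, the lowest of the 3 by little. GO5 minus WT at high CO2 was 1.89 and not called (adjusted p = 0.71). The step difference was 3.87 ± 0.68 (adjusted p = 0.00396), read by a probe set whose name marks possible cross-hybridisation.

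AT2G32020, for an acetyltransferase of the GNAT family, was near background in WT, at 3.06, 2.97 and 2.79 under high and 3.31, 2.92 and 3.16 under ambient CO2. In GO5 it read 3.29, 2.94 and 4.33 at high and 6.29, 8.05 and 7.77 at ambient CO2, a difference in steps of 3.66 ± 0.45 (adjusted p = 0.00016). NDB4, an NAD(P)H dehydrogenase of the outer face of the inner mitochondrial membrane, read 3.72, 3.96 and 4.05 in WT at high CO2 and 4.11, 3.81 and 3.94 at ambient CO2. Its GO5 arrays read 5.19, 4.02 and 5.85 at high CO2, which spread from the WT range to well above it, and 6.93, 8.62 and 7.37 at ambient CO2. The difference was 2.57 ± 0.51 (adjusted p = 0.00858). AT2G04050, an efflux carrier gene described below, is also on this list and was called in the fewest settings of its named members. The other called members, NDB2 (2.46 ± 0.54, adjusted p = 0.018) and AT5G09570 (1.42 ± 0.32, adjusted p = 0.0182), lie outside the naming rule and are given to complete the count. The uncalled members were NDB3 (0.55), AT2G21640 (2.05) and the small heat shock gene AT5G51440 (2.50).

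The efflux carriers AT2G04050 and AT2G04070 are neighbouring genes of the MATE family that export toxic compounds. Both were called higher (1.11% of all single genes were). They were the only 2 measured of the 7 listed carriers of their cluster. AT2G04070 read 5.21, 5.15 and 4.15 in WT at high CO2, 5.18, 4.24 and 4.27 in WT at ambient CO2, 5.84, 5.34 and 6.31 in GO5 at high CO2 and 8.45, 9.95 and 9.75 in GO5 at ambient CO2. GO5 at ambient CO2 lay apart from the other groups, and the difference was 3.83 ± 0.49 (adjusted p = 0.000221). AT2G04050 differed between the genotypes at high CO2 too, after the 8 h but not visibly at 0 h. In WT its 6 arrays read between 2.69 and 3.14, whereas GO5 gave 6.90, 4.56 and 8.94 at high CO2 and 9.21, 10.4 and 9.90 at ambient CO2. At high CO2 GO5 was 3.94 ± 0.58 above WT (adjusted p = 0.00682), with an SD of 2.20 among its 3 arrays. The step difference was 3.02 ± 0.82 (adjusted p = 0.0483); it was called in 6 of 20 alternative settings and ranged from 1.90 to 4.09 over them. Leaving out 1 array kept the call only for GO5 ambient replicate 1, WT ambient replicate 2 and GO5 high replicate 3. At 0 h, AT2G04050 was at 2.92 ± 0.01 (SD, n = 3) in GO5 and 2.96 ± 0.11 in WT.

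GO5 at high CO2 varied in the same order in several of these genes. Replicate 3 was the highest and replicate 2 the lowest of its 3 arrays at AT2G04050, AT2G41730, NDB4 and AT2G18190. AT2G18190, an AAA-type ATPase gene, read 4.97, 3.40 and 6.05 there, against 2.91 to 3.38 in the 6 WT arrays and 6.66, 8.25 and 7.07 in GO5 at ambient CO2. Its step difference was 2.52 ± 0.59 (adjusted p = 0.0244). Without GO5 ambient replicate 2, GO5 high replicate 1 or WT high replicate 1 it was not called.

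**Figure D2:**
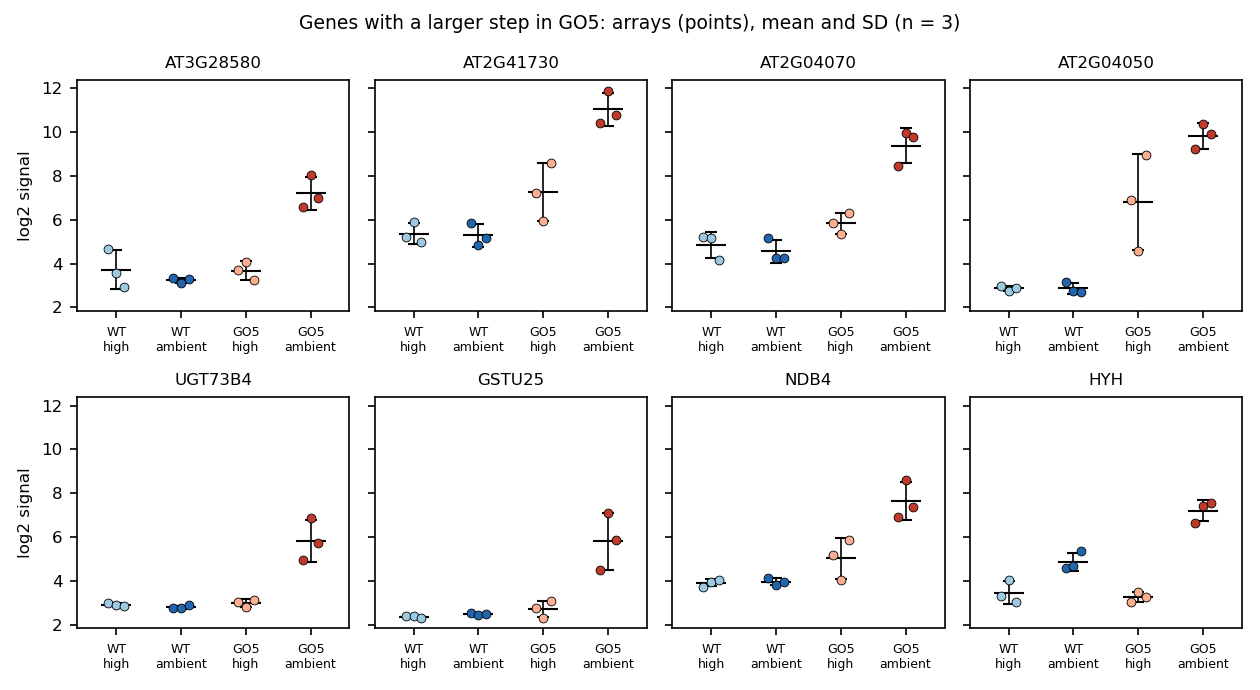
Log2 signal (y axis) of 8 genes with a higher step in GO5, by group (x axis); points are arrays, bars the mean and SD of 3 arrays. GO5 at ambient CO2 lies above the other 3 groups in all 8 panels, while AT2G04050 is already spread between 4.56 and 8.94 in GO5 at high CO2.

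Of the glycosyltransferases that attach glucose to toxic compounds and stress metabolites, 3 of 5 measured members were called, all higher (1.11% of all single genes were), with a list median of 2.61. This list too was chosen with earlier results of these data known, so its share only describes it. UGT73C1 read 2.91, 2.79 and 2.64 in WT at high CO2, 3.09, 3.14 and 3.04 in WT at ambient CO2 and 2.86, 3.08 and 2.82 in GO5 at high CO2. These 9 arrays lay near background, and GO5 at ambient CO2 rose to 5.03, 7.57 and 6.84, a difference of 3.25 ± 0.49 (adjusted p = 0.00088). The neighbouring genes UGT73B4 (2.96 ± 0.42, adjusted p = 0.00053) and UGT73B5 (2.61 ± 0.50, adjusted p = 0.00679) were each above all 9 other arrays in GO5 at ambient CO2, where UGT73B4 read 4.94, 6.85 and 5.71. UGT73B1 (0.89, adjusted p = 0.0661) and UGT73C2 (-0.08) were not called.

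The measured glutathione transferases, which couple electrophiles to glutathione, did not move as a list. Of 35 listed, 11 were measured and 1 was called, higher (1.11% of all single genes were), and the median was -0.02. That member, GSTU25, was at 2.39, 2.40 and 2.32 in WT at high CO2 and 2.52, 2.43 and 2.50 in WT at ambient CO2. In GO5 it read 2.75, 2.31 and 3.06 at high and 4.48, 7.09 and 5.84 at ambient CO2. Its GO5 step of 3.10 and WT step of 0.11 differed by 2.98 ± 0.69 (adjusted p = 0.0241). This call was lost without GO5 ambient replicate 2 and without replicate 1 or 2 of either genotype at high CO2. The step of cat2 exceeded that of WT by 4.72 (adjusted p = 0.0035). GO5 and cat2 differed by -1.74 ± 0.69 at this gene (adjusted p = 0.424), so the order of these genotypes was not settled. The 2 most strongly expressed members had differences of -0.47 (GSTU18) and 0.24 (GSTU20), neither of them called.

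General markers of oxidative stress all leaned the same way. Of 7 measured members 3 were called higher (1.11% of all single genes were), AT3G28580, AT2G18190 and AT1G10585. All 7 had a difference between 2.05 and 3.99. AT1G10585, a bHLH transcription factor gene, read 2.94, 3.12 and 3.33 in WT at high CO2 and 5.33, 2.93 and 4.86 in WT at ambient CO2. In GO5 it read 2.83, 2.82 and 3.67 and then 6.87, 8.81 and 7.16. Its arrays at ambient CO2 did not overlap between the genotypes, although WT at ambient CO2 scattered with an SD of 1.27. The GO5 step was 4.51 and the WT step 1.24, and the difference was 3.26 ± 0.75 (adjusted p = 0.0216); without GO5 ambient replicate 2, GO5 high replicate 1 or 2, or WT high replicate 1 it was not called. The uncalled members AT2G21640 (2.05, adjusted p = 0.0546), AT1G19020 (2.25), AT1G05340 (2.05) and AT1G57630 (2.68) had standard errors between 0.57 and 1.05.

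The measured antioxidant genes did not pass the test. Of 43 listed, 10 were measured, and catalase genes were not among those paired with a probe set. Of the 10, 0 were called by limma, 3 had an unadjusted p under 0.05, and the median difference was -0.04. The nearest were the monodehydroascorbate reductase gene ATMDAR2 (0.93 ± 0.28, adjusted p = 0.0733) and the glutathione reductase gene GR1 (1.08 ± 0.34, adjusted p = 0.0888), with GO5 steps of 0.78 and 1.54 and WT steps of -0.16 and 0.46. The plastid and mitochondrial glutathione reductase gene GR differed by -0.01 ± 0.26 and the peroxiredoxin gene AT3G11630 by -0.16 ± 0.13. The thylakoid and stromal ascorbate peroxidase genes TAPX and SAPX differed by -0.41 ± 0.23 and 0.45 ± 0.20. Heat shock proteins and co-chaperones keep damaged proteins folded. The 11 measured of 30 listed gave 0 calls (1 at an unadjusted p under 0.05) and a median of -0.17. Sulfate assimilation feeds glutathione synthesis. The 3 measured of 9 listed genes gave 0 calls (1 at an unadjusted p under 0.05), with the sulfite reductase gene SIR at 0.56 ± 0.16 (adjusted p = 0.0552).

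Defence genes were raised in part. The salicylate and camalexin list had 4 measured members, all neighbouring berberine bridge-type oxidases, of which 2 were called higher (1.11% of all single genes were). The list says nothing here of the synthesis of either compound. AT1G26380 had log2 signals of 5.74, 5.01 and 4.03 in WT at high CO2, 4.30, 3.59 and 4.91 in WT at ambient CO2, 5.37, 5.63 and 5.74 in GO5 at high CO2 and 7.12, 9.09 and 8.50 in GO5 at ambient CO2. The difference of 3.32 ± 0.89 was just called (adjusted p = 0.046); the call held only when the array left out was GO5 ambient replicate 1, WT ambient replicate 3 or WT high replicate 3. AT1G26410 differed by 2.84 ± 0.72 (adjusted p = 0.0352); its lowest GO5 ambient array, at 4.15, overlapped with the highest of WT at high CO2, at 4.17. It lost its call without GO5 ambient replicate 2 or 3, GO5 high replicate 1 or 3, WT ambient replicate 1 or WT high replicate 1 or 2. AT1G74360, a receptor-like kinase gene with leucine-rich repeats, read 4.30, 4.82 and 3.98 at high and 6.53, 8.22 and 7.75 at ambient CO2 in GO5. In WT it read 5.10, 4.73 and 3.55 at high and between 3.82 and 4.77 at ambient CO2, so that only GO5 at ambient CO2 stood apart, with a difference of 3.36 ± 0.66 (adjusted p = 0.00874). AT4G37290, which encodes the precursor of a secreted peptide induced in immunity, differed by 3.12 ± 0.50 (adjusted p = 0.00164). Early stress signalling factors had 0 calls of 6 (2 at an unadjusted p under 0.05) and a median of 1.59; the zinc finger gene STZ differed by 1.63 ± 0.97 and WRKY53 by 1.54 ± 0.87. The jasmonate defensins PDF1.2 and PDF1.2b differed by 0.54 ± 1.76 and 1.15 ± 1.66, too variable for a statement.

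Other leading increases had mixed roles. SUFE2, for an activator of the cysteine desulfurase that supplies sulfur to iron-sulfur clusters, differed by 3.82 ± 0.78 (adjusted p = 0.0117), with 6.98, 8.74 and 7.80 in GO5 at ambient CO2 against 3.84 to 5.44 in the 9 other arrays. AT1G33030, an O-methyltransferase gene, differed by 3.32 ± 0.66 (adjusted p = 0.00938), AT2G41380, a methyltransferase-like gene, by 3.24 ± 0.51 (adjusted p = 0.0013) and AT1G02470 by 3.18 ± 0.55 (adjusted p = 0.00366). AT2G23270 rose in GO5 from 3.95, 3.44 and 3.92 to 6.15, 7.84 and 7.01, while WT read 4.06, 3.70 and 3.53 and then 4.17, 3.42 and 3.43. Its difference was 3.32 ± 0.39 (adjusted p = 0.00016). AT5G14730 moved from 4.65, 4.46 and 5.17 to 6.49, 7.85 and 7.36 in GO5, and from 4.38, 4.25 and 4.18 to 3.94, 3.13 and 3.48 in WT, where the step of -0.75 was not called (adjusted p = 0.1). The difference of 3.22 ± 0.37 (adjusted p = 0.00016) was kept with only the 12 arrays in the fit, as was that of AT2G41380. The other 37 named calls were not kept in that fit.

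The bZIP regulator gene HYH, a relative of HY5 in the response to light, was the called member among 7 measured flavonoid and anthocyanin genes. It was called higher, as were 1.11% of all single genes. It read 3.30, 4.04 and 3.02 in WT at high CO2 and 4.59, 4.67 and 5.34 at ambient CO2, and 3.05, 3.49 and 3.25 and then 6.64, 7.41 and 7.57 in GO5. Both genotypes were higher at ambient CO2 with no overlap, and the GO5 step of 3.95 exceeded the WT step of 1.41 by 2.53 ± 0.66 (adjusted p = 0.0421). The call was kept only on leaving out GO5 ambient replicate 1, WT ambient replicate 2 or 3 or WT high replicate 3, among the 12 arrays. At 0 h HYH stood at 7.54 ± 0.99 in WT and 7.58 ± 0.80 in GO5 (SD, n = 3), above every 8 h group mean. Some biosynthetic enzymes of this list rose with the step in both genotypes: DFR by 2.59 in GO5 and 2.33 in WT (adjusted p = 2.6e-05 and 0.00028) and UF3GT by 1.72 and 2.33 (adjusted p = 0.00013 and 1e-05). DFR and UF3GT lie outside the naming rule. Of the 2 strongest members, UGT78D2 rose by 1.73 in GO5 and 1.67 in WT (adjusted p = 0.0126 and 0.0429). UGT78D1 had steps of 0.22 and 0.72, neither called (adjusted p = 0.61 and 0.077). The step differences of DFR (0.26 ± 0.50), UF3GT (-0.61 ± 0.38), UGT78D2 (0.06 ± 0.66) and UGT78D1 (-0.50 ± 0.33) were not called. Over the list, the median steps were 1.72 in GO5 and 1.67 in WT, and the median difference was -0.27. Cold and dehydration genes behaved likewise, with 0 calls of 4 (1 at an unadjusted p under 0.05) and median steps of 2.12 in GO5 and 2.04 in WT. The dehydrin gene LTI30 rose by 4.58 in GO5 and 3.24 in WT, and the difference of 1.34 ± 0.38 fell just short (adjusted p = 0.0569).

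**Figure D3:**
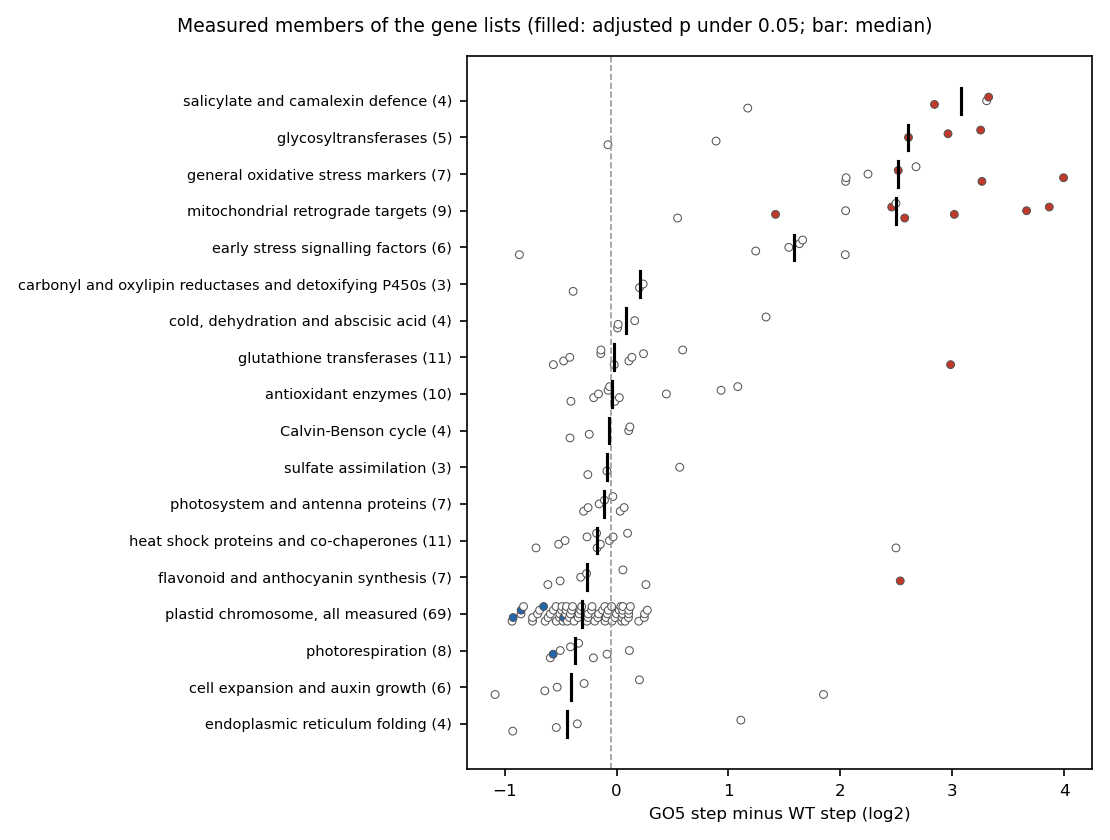
GO5 step minus WT step (x axis, log2) of every measured member of the gene lists with at least 3 measured members, with the number measured in brackets; filled points were called, black bars are list medians and the dashed line is the median of all probe sets (-0.05). Lists of oxidative markers, glycosyltransferases, defence oxidases and mitochondrial retrograde genes have medians between 2.50 and 3.07, whereas photosynthesis, antioxidant and heat shock lists lie near 0.

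Among the named genes with a lower step was EXO, a cell expansion gene that responds to brassinosteroid. It read 7.92, 7.95 and 7.09 in WT at high CO2 and 7.24, 6.89 and 7.23 at ambient CO2. In GO5 it fell from 8.88, 8.66 and 9.25 to a mean of 6.78 ± 0.26 (SD, n = 3). GO5 at high CO2 was the highest of the 4 groups, 1.27 ± 0.25 above WT (adjusted p = 0.14), and GO5 at ambient CO2 had the lowest mean. The step difference was -1.61 ± 0.35 (adjusted p = 0.0169). At 0 h EXO stood at 8.71 ± 0.40 in GO5 and 8.79 ± 0.15 in WT (SD, n = 3). EXLA1, an expansin-like wall protein gene, had the same form: 6.84, 7.44 and 6.62 and then 6.52, 5.73 and 6.60 in WT, and 7.85, 7.78 and 7.96 and then 5.51, 5.44 and 5.79 in GO5. Its difference was -1.60 ± 0.30 (adjusted p = 0.00678), and at 0 h it stood at 7.90 ± 0.18 in GO5 and 7.86 ± 0.28 in WT.

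The GDSL lipase genes AT4G28780 and AT5G45960 differed through WT. AT4G28780 rose in WT from 6.08, 5.91 and 6.87 to 7.67, 7.97 and 7.65, a step of 1.48 (adjusted p = 0.0057), and read 6.99, 7.03 and 6.50 and then 6.62, 6.42 and 6.77 in GO5, a step of -0.24 (adjusted p = 0.69). The difference was -1.71 ± 0.43 (adjusted p = 0.0362), and the call was lost without GO5 ambient replicate 2, WT ambient replicate 1 or replicate 1 or 2 of either genotype at high CO2. AT5G45960 rose in WT from 3.82, 3.77 and 4.41 to 5.28, 4.81 and 5.46 and stayed between 3.50 and 4.43 in all 6 GO5 arrays, a difference of -1.56 ± 0.37 (adjusted p = 0.0272), lost without those same arrays or WT ambient replicate 3. At both genes GO5 at ambient CO2 overlapped with WT at high CO2.

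Regulators were also among the decreases. The lowest difference at a named gene was that of AT5G50915, a bHLH transcription factor gene, which read 6.64, 7.11 and 6.66 and then 7.48, 6.30 and 7.10 in WT, and 6.86, 7.30 and 7.03 and then 5.47, 5.02 and 5.59 in GO5. Only GO5 at ambient CO2 stood apart, below all 9 other arrays, with a difference of -1.86 ± 0.36 (adjusted p = 0.00808). AT3G51470, for a protein phosphatase of the 2C type, differed by -1.18 ± 0.31 (adjusted p = 0.0421), lost without GO5 ambient replicate 2 or 3, WT ambient replicate 1 or replicate 1 or 2 of either genotype at high CO2. AT1G75960, for an acyl-activating enzyme, fell in GO5 from 6.10, 5.24 and 5.96 to 3.65, 3.68 and 4.36, a difference of -1.48 ± 0.32 (adjusted p = 0.0165), lost without GO5 ambient replicate 2 or GO5 high replicate 1.

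Further named decreases lay between -1.26 and -1.10. AT1G36390, for a GrpE-type helper of chloroplast Hsp70, read 7.45, 7.77 and 7.81 and then 8.12, 7.82 and 7.93 in WT, and 7.81, 7.51 and 7.71 and then 6.63, 6.58 and 6.88 in GO5. The difference was -1.26 ± 0.18 (adjusted p = 0.000602), between -1.36 and -1.14 over all settings. AT2G44640 stood at 7.88, 7.77 and 7.85 in GO5 at ambient CO2 against 8.90 to 9.42 in the 9 other arrays, a difference of -1.17 ± 0.20 (adjusted p = 0.00368). AT3G25805 differed by -1.10 ± 0.17 (adjusted p = 0.00145) and AT5G03050 by -1.21 ± 0.22 (adjusted p = 0.00526). The remaining named decreases, AT4G37240, AT3G09580, AT3G12685 and AT1G12845, ranged from -1.26 to -1.15 and each lost its call when GO5 ambient replicate 2, GO5 high replicate 1 or WT high replicate 1 was left out. The same held without WT high replicate 2 for AT3G09580, and without GO5 high replicate 2 or WT ambient replicate 1 for AT3G12685. AT1G12845 also lost it without GO5 high replicate 2, WT ambient replicate 1 or WT high replicate 2, and AT4G37240 kept it only without GO5 ambient replicate 3 or WT ambient replicate 2.

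**Figure D4:**
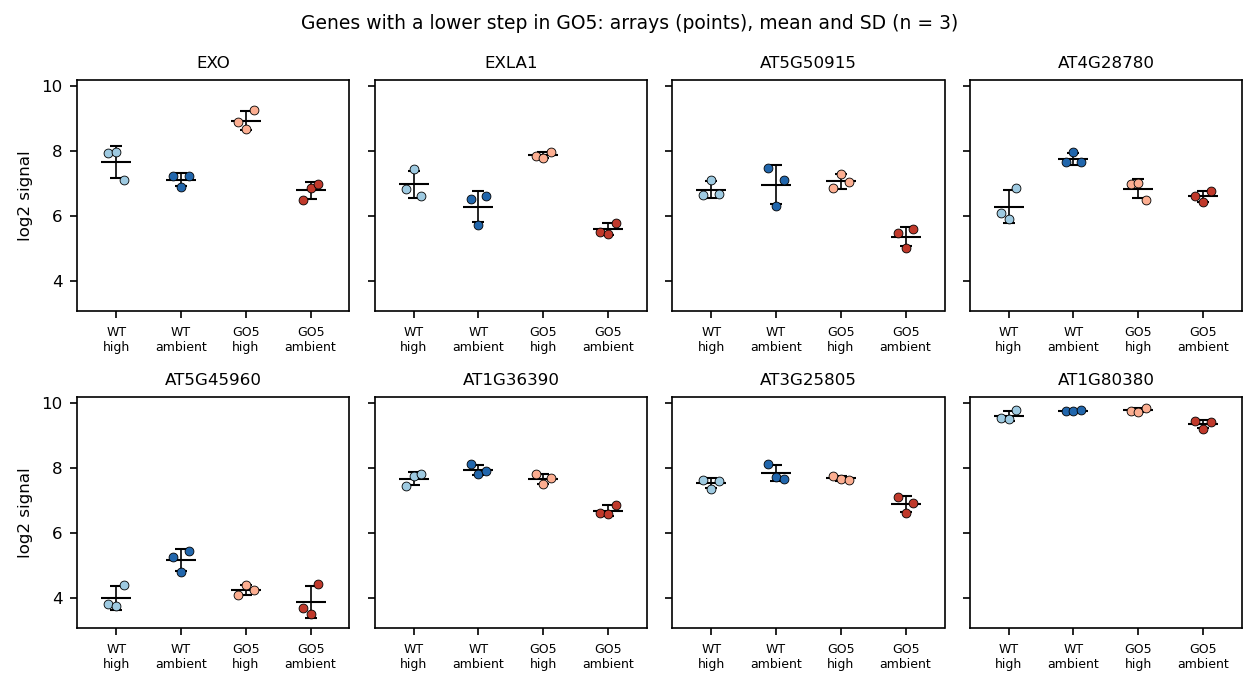
Log2 signal (y axis) of 8 genes with a lower step in GO5, by group (x axis); points are arrays, bars the mean and SD of 3 arrays. EXO and EXLA1 are highest in GO5 at high CO2, AT4G28780 and AT5G45960 rise in WT, and the other 4 are lowest in GO5 at ambient CO2.

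Photorespiration, the pathway that supplies glycolate, had 1 call among 8 measured members, lower in GO5 (1.45% of all single genes were), and a median of -0.38 against -0.05 for all probe sets. That gene, AT1G80380, encodes glycerate kinase, the last enzyme of the pathway. It read 9.55, 9.52 and 9.79 and then 9.75, 9.75 and 9.78 in WT, and 9.76, 9.74 and 9.86 and then 9.45, 9.21 and 9.41 in GO5. The difference was -0.57 ± 0.14 (1.48-fold, adjusted p = 0.0329), and the GO5 ambient arrays lay below the other 9. The call was lost without GO5 ambient replicate 2, any GO5 high array, or WT high replicate 1 or 2. AT1G11860, a T protein gene of the glycine cleavage system, differed by -0.41 ± 0.21 and the hydroxypyruvate reductase gene HPR by 0.12 ± 0.25. AT1G79870, another hydroxypyruvate reductase gene, had -0.59 ± 0.20 (adjusted p = 0.111).

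The measured members of the nuclear photosynthesis lists did not pass the test. They were 4 of 22 Calvin-Benson, 7 of 37 photosystem and 2 of 13 chlorophyll synthesis genes, and 0 were called by limma. Of these 1, the chlorophyll gene CHLM (-0.58 ± 0.27), had an unadjusted p under 0.05. CHLI2, a nuclear gene of chlorophyll synthesis outside these lists, was called lower (-1.08). RCA differed by 0.11 ± 0.18, PRK (phosphoribulokinase) by 0.12 ± 0.21, LHCB4.1 by 0.07 ± 0.18 and PSAE-1 by -0.11 ± 0.15. Genes of the plastid's own chromosome, a list added after the values were seen, had 4 calls of 69, all lower (1.34% of all probe sets were): rps18 (-0.92), ndhG (-0.85), ndhD (-0.65) and ccsA (-0.47). Their median was -0.31, with 17 of 69 differences above 0. The GAPDH 3' minus 5' value, a measure of RNA quality, had a step difference of -0.38 in the same groups; its part in the result was not tested.

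The measured members of the growth, starch, wax, clock, oxylipin and endoplasmic reticulum lists gave 0 calls in limma. Of these members, 2 growth, 2 endoplasmic reticulum and 1 oxylipin reductase gene had an unadjusted p under 0.05. The cell expansion gene EXO and the expansin-like gene EXLA1, called lower above, are not on the growth list. The 6 measured members of the cell expansion and auxin growth list had a median difference of -0.41. EXPA8 fell by 3.06 in GO5 and 2.53 in WT (adjusted p = 0.0043 and 0.043) and EXPA4 rose by 1.65 and 1.44 (adjusted p = 0.00088 and 0.0087), with step differences of -0.53 ± 1.01 and 0.20 ± 0.45. The wax ester synthase gene WSD1 rose by 3.41 in GO5 and 3.96 in WT (adjusted p = 3.7e-06 and 1.3e-06), a difference of -0.55 ± 0.56. The clock gene GI differed by 0.79 ± 0.54, the starch genes APL3 and SBE2.2 by -0.57 ± 0.38 and 0.29 ± 0.31, and the endoplasmic reticulum genes CRT1b and ATERDJ3B by -0.35 ± 0.24 and -0.54 ± 0.34. The oxylipin reductases AER and AT5G16990 differed by 0.21 ± 0.31 and -0.39 ± 0.16.

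The cat2 mutant, which removes less of the H2O2 formed in peroxisomes, was moved in the same way and gives the nearest comparison; its difference from WT shares the WT arrays, and GO5 minus cat2 shares the GO5 arrays. The cat2 minus WT difference had 22 calls (0.0967%), 21 higher (0.0923%) and 1 lower (0.0044%). Without cat2 ambient replicate 3 alone it had 218, 147 higher and 71 lower, and without any other 1 array 7 to 49. The direct test, GO5 minus cat2, had 112 calls (0.492%), 71 higher (0.312%) and 41 lower (0.18%); it had 367 without GO5 ambient replicate 1, 57 to 139 without any other 1 array and 6 with only the arrays compared. At AT2G32020 the difference was 3.66 for GO5 minus WT, 0.02 for cat2 minus WT (adjusted p = 0.99) and 3.65 ± 0.45 for GO5 minus cat2 (adjusted p = 0.000222). At AT2G23270 they were 3.32, 0.11 and 3.21 ± 0.39 (adjusted p = 0.000222 for the last). AT4G37290, AT2G04070, NDB4, UGT73B4 and AT3G28580 also differed between GO5 and cat2, by 2.87, 2.86, 2.68, 1.96 and 2.62 (adjusted p = 0.00596, 0.00566, 0.0122, 0.034 and 0.0368), and AT5G50915 by -1.72 ± 0.36 (adjusted p = 0.031). These are genes at which the GO5 step differed from that of both other genotypes. Of all calls, 63 of the 329 higher and 8 of the 304 lower ones passed the GO5 minus cat2 test in the same direction. Both tests share the GO5 arrays, so these counts are a description only. AT1G10585, AT2G41380, SUFE2 and AT1G26380, with GO5 minus cat2 differences of 0.96, 0.82, 1.43 and 1.18, did not pass that test (adjusted p = 0.795, 0.713, 0.648 and 0.788), and their standard errors of 0.51 to 0.89 leave the size of the difference wide.

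RNA quality, read as the 3' minus 5' difference of the GAPDH control probe sets, moved with the groups. It was 1.49 ± 0.15 (SD, n = 3) in GO5 at ambient CO2, 1.83 ± 0.07 in GO5 at high CO2, 2.12 ± 0.61 in WT at ambient CO2 and 2.09 ± 0.31 in WT at high CO2. The GO5 step of this measure was -0.34 (exact two-sided permutation p = 0.1, the smallest that 3 against 3 arrays allow) and the WT step 0.04 (exact p = 1), a difference of -0.38. The actin controls gave step values of 0.08 and -0.23, a difference of 0.32 in the opposite direction. With the GAPDH value as a covariate the calls numbered 1248 and all 39 named calls were kept.

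How firmly the counts stand depends on the spread that is assumed. The plot of calls by setting shows 13 calls when the fit holds only the 12 arrays compared, all of them higher, 151 when each group keeps its own variance and between 190 and 1675 when 1 array is left out. Whichever array was left out, 121 of the higher and 45 of the lower calls were kept, and 0% of the 633 changed sign. The 633 were selected on these same arrays, so a kept sign is no separate support for them. In simulated data of this design, 97 of 100 planted changes of 2 log2 units were recovered and 50 of 100 of 1 unit. Of the unchanged probe sets 4 were called there. The simulation gave all groups the same spread, whereas the real WT ambient arrays scattered more than the others. Recovery and false calls under that unequal spread were therefore not tested.

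**Figure D5:**
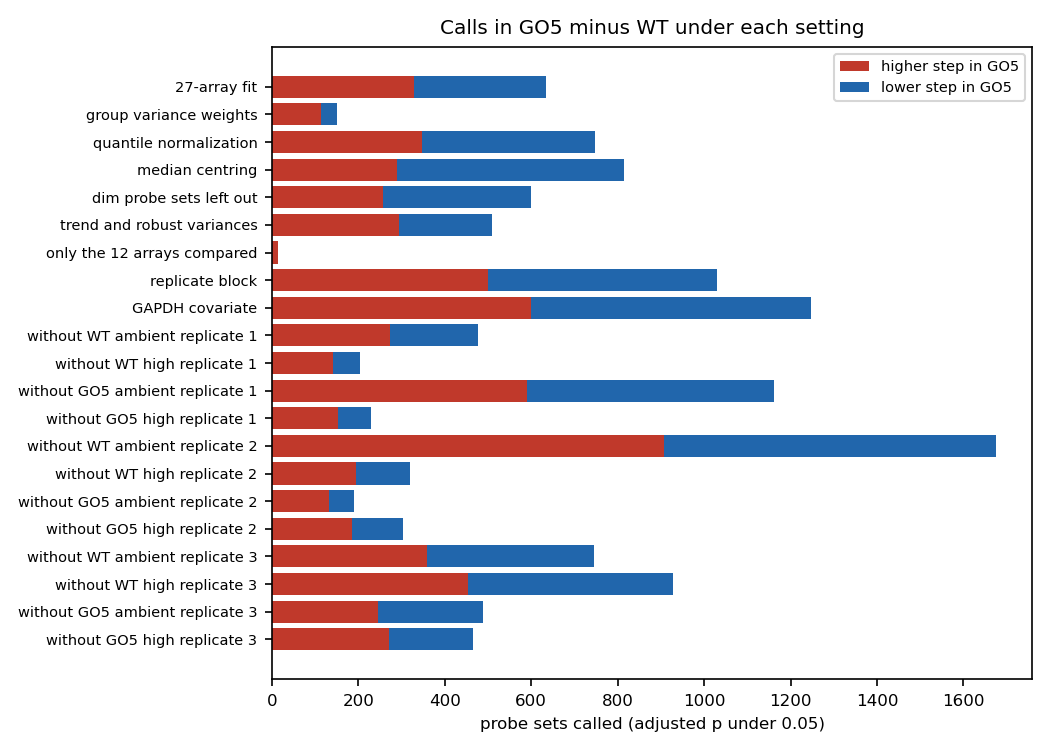
Number of probe sets called in the comparison (x axis; red, higher step in GO5; blue, lower) under each setting (y axis). The count is 633 in the 27-array fit, 13 in the fit of the 12 arrays alone and 1675 without replicate 2 of WT at ambient CO2.

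Some called genes lie beside each other in the reference gene order. Within 5 protein-coding genes, 9 pairs were both higher and 9 both lower, each 0.0319% of the 28255 measured pairs. Of the 147 higher nuclear genes 18 were in such a pair, and of the 188 lower ones 18. How many pairs the number of called genes alone would give was not computed, so these counts are a description only. Several higher pairs belong to 1 family: AT2G32020 and AT2G32030 (3.66 and 2.96), UGT73B4 and UGT73B5, the subtilase genes SBT3.3 and SBT3.5 (2.81 and 2.60), AT3G28580 and AT3G28560 (3.99 and 0.87), AT1G26380 and AT1G26410, and the carriers AT2G04050 and AT2G04070. Related genes can share hybridisation signal on arrays, which was not tested. CHLI2, for a subunit of magnesium chelatase in chlorophyll synthesis, and AT5G45960 were a lower pair of unlike genes (-1.08 and -1.56). AT2G32030, the subtilases, AT3G28560 and CHLI2 were named for these pairs after their values were seen.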

How the data were processed

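The deposited table holds a log2 signal for each probe set on each array and no detection call. RMA and GCRMA both stand in the submitters' processing notes, and it was not settled which made the values. Every value column matched a sample by its label. After removal of 64 control probe sets, the other 22746 entered one linear model over the 27 arrays, with a mean for each group, default empirical Bayes variances and two-sided tests (limma 3.58.1, R 4.3.3). P-values were adjusted by Benjamini-Hochberg over all probe sets within each comparison. With 3 arrays per group, their number limits the precision.

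A probe annotation table paired 13513 probe sets with 1 gene, 503 with several and 8730 with none; symbols came from the RefSeq reference table (TAIR10.1), which 13436 of the single-gene sets matched. Of several probe sets for a gene, that with the smallest p was used, giving 13286 genes. Genes for catalase or glycolate oxidase were not paired, so the engineered change itself is not analysed here.

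Named genes were the 15 largest increases and 15 largest decreases, the largest among called genes with opposite steps of 1 log2 unit or more, or with a smaller step of the same sign in GO5 (no gene met these), up to 4 called members of each list, and the 2 strongest members of lists with fewer than 2 calls. The comparison, members and lists were chosen with earlier results of these data known. Lists are described by counts and medians. Of 29 lists, those for senescence, phloem and flowers had 0 measured members. Of the 17 listed plastid-encoded loci 0 were matched to a measured gene, although 69 genes of the plastid chromosome were measured.

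Alternatives were quantile normalization, median centring, probe sets below percentile 40 of mean signal left out, trend and robust variances, only the 12 arrays compared, a replicate block, a GAPDH covariate and leaving out the 12 arrays one at a time. A fit with group variance weights was added after seeing the data. The fit was tested on simulated data with the same spread in all groups.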

Additional observations from a re-analysis of the deposited data

Results flagged for a closer look

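At 5 genes the GO5 step and the WT step both passed the test and ran in opposite directions, and the test of the difference itself was passed too. They were singled out by that pattern and lie outside the naming rule. AT5G59500 fell by 0.55 in GO5 and rose by 0.44 in WT, a difference of -0.99 ± 0.14 (adjusted p = 0.00053). For AT4G24090 the steps were -0.34 and 0.54 (difference -0.88 ± 0.15), and for AT1G26650 they were -0.40 and 0.46 (difference -0.85 ± 0.18). AT5G06560 rose by 0.59 in GO5 and fell by 0.52 in WT, a difference of 1.10 ± 0.20. AT1G64050 had steps of 0.76 and -0.56 and a difference of 1.32 ± 0.23. All single steps were below 1 log2 unit. Groups of 3 arrays were too small for the test of single outlying samples.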

How the results depend on the processing

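The 633 calls became 747 with quantile normalization, 815 with median centring (290 higher, 525 lower), 600 without dim probe sets and 510 with trend and robust variances. They became 151 with group variance weights (113 higher, 38 lower) and 1248 with the GAPDH covariate (599 higher, 649 lower). With only the 12 arrays compared, which then alone give the spread, they became 13 (13 higher, 0 lower). The cause of these changes was not tested. Leaving out 1 array gave 190 (without GO5 ambient replicate 2) to 1675 calls (without WT ambient replicate 2), 132 to 906 higher and 58 to 769 lower; a group of 2 arrays is then assumed to vary like the others. The GO5 step then had 2309 to 3846 calls, the WT step 587 to 3247, GO5 against WT at high CO2 2 to 16, cat2 minus WT 7 to 218 and GO5 minus cat2 57 to 367. With only the arrays compared, the WT step had 153 calls, cat2 minus WT 1 and GO5 minus cat2 6; with group variance weights these were 270, 9 and 208, and without dim probe sets cat2 minus WT had 9 and GO5 minus cat2 44. Of the 39 named calls, 37 were lost with only the 12 arrays, 18 with group variance weights, 3 with trend and robust variances, 1 with median centring and 1 to 16 on leaving out an array, and 0 of those tested under the other settings. No called named difference changed sign, in genes that were selected on these same arrays.

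The labels tie the replicate numbers to no shared batch, and deviations of same-numbered arrays correlated between -0.17 and 0.50, so the numbers were not taken as pairs. Replicate 3 correlated with replicate 3 in all 6 pairs of groups (0.30 to 0.50), a hint from the data of something these arrays share; not every array correlated best with its own number. With a replicate block the calls numbered 1030 (499 higher, 531 lower). In place of GAPDH, actin gave 3' minus 5' differences of opposite sign for the GO5 step (0.0816), the WT step (-0.23) and GO5 minus WT at ambient CO2 (0.20). For weakly expressed genes the background of the arrays sets the limit.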

Other observations

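The 3 probe sets that differed between GO5 and WT at high CO2 did so in different ways. AT2G04050 is described above. AT3G55920, named for this count after its values were seen, read 7.17 ± 0.09 (SD, n = 3) in GO5 and 3.03 ± 0.12 in WT at high CO2, a difference of 4.14 ± 0.09 (adjusted p = 2.16e-18). It stood at 6.92 ± 0.03 in GO5 and 3.16 ± 0.12 in WT at 0 h, and at 7.22 ± 0.06 in cat2 at high CO2, so that WT was the low genotype. On the move to ambient CO2 it fell by 0.53 in GO5 and had a step of -0.04 in WT, and the step difference of -0.49 ± 0.13 was called (adjusted p = 0.0423). The other probe set is paired with no single gene; it was 1.81 ± 0.12 higher in GO5 at high CO2 and had a step difference of -0.01.

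Among the called probe sets with no single paired gene were the extremes of the comparison, a difference of 4.54 at the top and of -2.40 at the bottom.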
